A study of Mus musculus with 6 samples.

Results

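The genes described here encode subunits of the receptors for GABA (gamma-aminobutyric acid), the main inhibitory transmitter of the cortex. They are 7 genes: Gabra2, Gabra3, Gabra4 and Gabra5 for alpha subunits and Gabrb1 and Gabrb2 for beta subunits of the GABA-A receptor, and Gabbr1 for a subunit of the GABA-B receptor. They were chosen by symbol, and every probe set annotated with exactly 1 symbol, equal to one of these, was taken, 23 probe sets of 45037. Of the 23, 17 had a mean intensity of at least 50 in at least 1 treatment group and entered the tests, as did 19073 probe sets in all. The numbers past this filter were 3 of 5 for Gabra2, 1 of 2 for Gabra3, 2 of 2 for Gabra4, 1 of 1 for Gabra5, 3 of 4 for Gabrb1, 4 of 5 for Gabrb2 and 3 of 4 for Gabbr1. The 6 under the filter had intensities between 4.7 and 68.4.

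The RNA came from cortex of mice of the Glt25d2 bacTRAP line DU9, backcrossed for 3 to 5 generations from FVB onto C57BL/6. In this line the Glt25d2 (now Colgalt2) regulatory region on a bacterial artificial chromosome drives a tagged ribosomal protein in pyramidal neurons of layer 5. The tagged ribosomes, with the RNA on them, are pulled down with an antibody against the tag (translating ribosome affinity purification, TRAP). All mice carried the transgene and drank 1% saccharine for 15 to 18 days, with 0.167 mg/ml of the antidepressant fluoxetine added for 3 purifications and nothing added for 3 (vehicle). Each purification was read on 1 Affymetrix array, and the labels call them biological replicates without saying how many mice went into each, so the p-values measure the spread between purifications. In such bulk RNA, fewer cells of a type and less RNA per cell cannot be told apart.

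The title, source and treatment fields of every sample name 1 treatment and its description field names the other. The groups used here, fluoxetine arrays and vehicle arrays, follow the first 3 fields. Were the description field the true one, the treatment differences would all turn their sign and keep their p-values. The titles also number the replicates 1 to 3 in each group, without a label that explains the number. The 2 arrays numbered 1 stood apart from the other 4 on the first principal component, which held 60% of the variance, and they are set against the other 4 below. That comparison was chosen because these arrays stand apart, so its p-values are not independent evidence that they do.

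GABA-A receptors are chloride channels assembled from several subunits, usually alpha and beta subunits with one further kind, and the alpha subunit helps to set their place in the membrane and their kinetics. GABA-B receptors are G protein-coupled dimers that open GIRK potassium channels and reduce calcium entry. In pyramidal cells GABA-A receptors give fast inhibition at synapses and a tonic current outside them, and GABA-B receptors give slow inhibition.

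The members lie on 5 chromosomes: Gabra2, Gabra4 and Gabrb1 on chromosome 5, Gabra3 on X, Gabra5 on chromosome 7, Gabrb2 on chromosome 11 and Gabbr1 on chromosome 17. RefSeq windows of 300 bases around annotated start sites (build GRCm38.p6) matched all 7 members by symbol, 11 windows in all. The windows printed are those of Gabra5, Gabra4 and Gabrb2, whose brightest probe sets lay above the other 4 arrays on both arrays of replicate 1, and that of Gabrb1, whose start site lies 387 bases from that of Gabra4 but whose probe sets did not. Gabra2 did so too, by a narrow margin, and its window held no match to the motifs searched. Gabra5 is at chr7:57510010-57510309 (minus strand), Gabra4 at chr5:71658259-71658558 (minus strand), Gabrb1 at chr5:71657671-71657970 (plus strand, the first of 2 windows) and Gabrb2 at chr11:42420190-42420489 (plus strand, the first of 3 windows). Each reads 5′ to 3′ on the strand of its gene. Capitals mark matches on either strand to TGACG (the core of the CREB site), GCGNGGGCG (a site of the Egr factors), TATAAA or CACGTG (an E box), and no match overlaps another.
Gabra5: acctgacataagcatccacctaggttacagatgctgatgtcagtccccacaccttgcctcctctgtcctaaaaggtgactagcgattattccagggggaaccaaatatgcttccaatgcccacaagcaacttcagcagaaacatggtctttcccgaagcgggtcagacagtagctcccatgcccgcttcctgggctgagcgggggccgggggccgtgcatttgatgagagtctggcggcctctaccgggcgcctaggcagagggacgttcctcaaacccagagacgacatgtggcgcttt
Gabra4: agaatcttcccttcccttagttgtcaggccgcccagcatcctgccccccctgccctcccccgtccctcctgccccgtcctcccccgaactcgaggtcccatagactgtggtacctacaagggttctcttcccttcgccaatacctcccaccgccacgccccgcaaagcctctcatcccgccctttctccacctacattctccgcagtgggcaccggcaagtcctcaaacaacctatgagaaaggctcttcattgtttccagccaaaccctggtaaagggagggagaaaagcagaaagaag
Gabrb1: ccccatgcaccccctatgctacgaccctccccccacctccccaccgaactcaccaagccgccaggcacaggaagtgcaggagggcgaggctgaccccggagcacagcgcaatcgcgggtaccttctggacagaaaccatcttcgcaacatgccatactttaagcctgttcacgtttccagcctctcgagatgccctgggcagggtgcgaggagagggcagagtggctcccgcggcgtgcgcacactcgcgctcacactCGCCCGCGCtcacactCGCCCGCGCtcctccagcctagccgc
Gabrb2: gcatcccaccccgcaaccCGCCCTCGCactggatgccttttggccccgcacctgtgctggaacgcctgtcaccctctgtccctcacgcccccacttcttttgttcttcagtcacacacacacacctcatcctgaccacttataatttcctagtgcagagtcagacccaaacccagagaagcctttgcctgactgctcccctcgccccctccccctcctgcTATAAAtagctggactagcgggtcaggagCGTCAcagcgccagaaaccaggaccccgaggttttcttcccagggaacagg
The Gabra5 and Gabra4 windows held no match to these 4 motifs. The Gabrb1 window held the Egr motif at 2 places, and 5.55% of all 32851 windows held it at least once. The Gabrb2 window held TATAAA 30 bases before the start site, a motif found in 13.6% of windows, a TGACG, found in 20.8%, and an Egr motif. CACGTG, found in 7.15% of windows, was in none of the 4. These matches describe letters in a window and were not tested against the array values.

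Setting the fluoxetine against the vehicle arrays asks whether the drug alters the GABA receptor messages on ribosomes of these cells. By limma, 0 of the 17 member probe sets had an adjusted p under 0.05, as did 0% of all 19073. Of the 17, 0 had an unadjusted p under 0.05, against 0.634% of all probe sets, and the smallest was 0.269, for Gabra3 (limma). Their log2 differences lay between -0.098 and 0.25 with a median of 0.057, and the median of all probe sets was -0.0096. By this fit, without the replicate number, the 95% confidence interval lay within 2-fold in either direction for 14 of the 17 (82.4%). It did so for 94.0% of all probe sets. The 3 with a wider interval were the probe sets of Gabra2. With the replicate number as a block the SE was smaller for each of the 17. For Gabra2 1455444_at, 1421738_at and 1443865_at it was 0.25, 0.41 and 0.24, against 0.47, 0.48 and 0.37 without the block. The treatment differences below carry the SE of the fit without the block unless it is named. For 0 of the 17 did the 3 fluoxetine values lie all above or all below the vehicle ones, which was so for 3.65% of all probe sets.

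**Figure D1:**
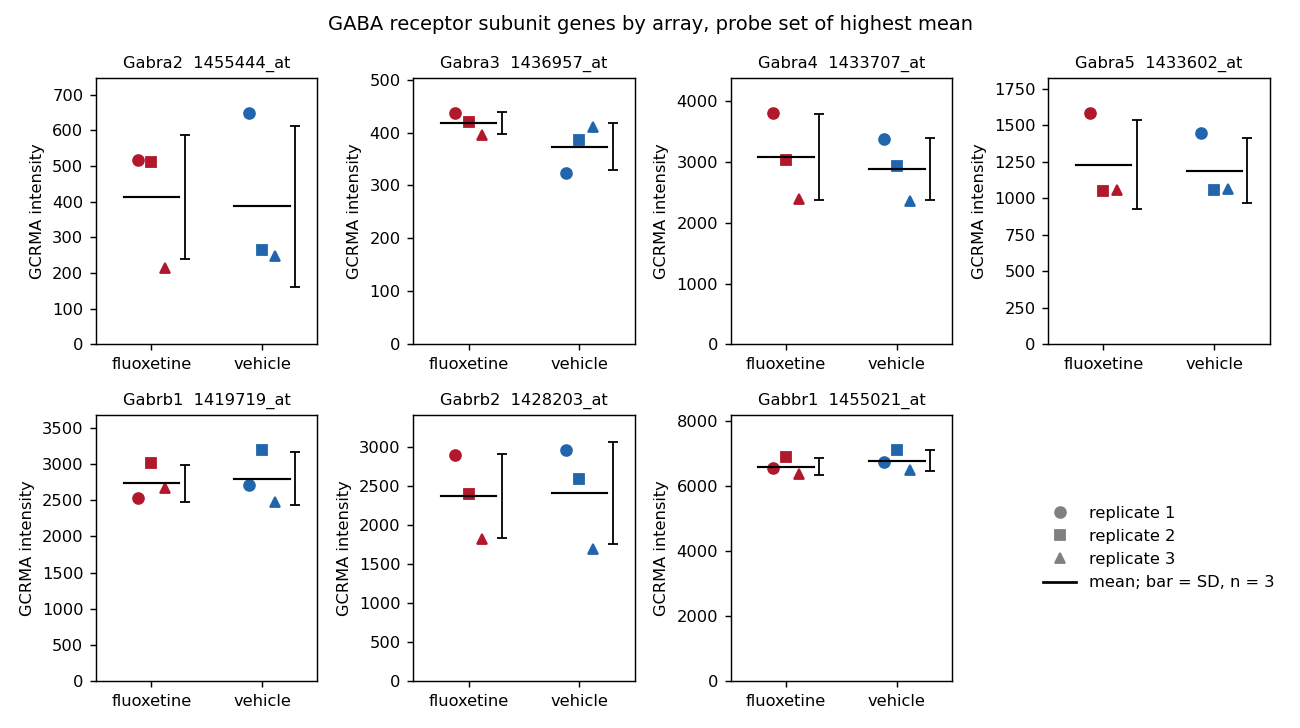
GCRMA intensity of the 7 genes (y axis, linear, from 0; probe set of highest mean) on the 3 fluoxetine and the 3 vehicle arrays; symbols give the replicate number, lines the mean and bars the SD (n = 3). The groups overlap for all 7 genes, and the replicate 1 array is the highest of its group for Gabra2, Gabra4, Gabra5 and Gabrb2.

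Gabra2 encodes an alpha subunit known for its place at the axon initial segment of pyramidal cells, and it varied most between arrays. Its brightest probe set, 1455444_at, had intensities of 517.0, 512.5 and 213.2 on fluoxetine arrays 1, 2 and 3, against 648.6, 264.9 and 248.0 on vehicle arrays 1, 2 and 3. High and low arrays occurred in both groups. The log2 difference was 0.14 ± 0.47 (SE) in the fit of treatment alone. The 95% interval of the ratio from that fit ran from 0.508 to 2.38, which includes a 2-fold increase. With the replicate number as a block the difference was 0.14 ± 0.25 (SE).

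A second Gabra2 probe set, 1443865_at, followed the first, with a Pearson r of 0.97 over the 6 arrays. It had 141.7, 143.5 and 66.1 on the fluoxetine arrays and 139.1, 70.6 and 80.7 on the vehicle arrays. Another, 1421738_at, did not follow the first (r = 0.26), with 143.5, 552.7 and 171.6 on the fluoxetine arrays and 231.3, 196.5 and 266.2 on the vehicle arrays. Fluoxetine array 2 stood above all other arrays there. Between the 2 arrays numbered 2, all 3 Gabra2 probe sets were higher on the fluoxetine one, by 0.95, 1.02 and 1.49 on the log2 scale, while the arrays numbered 1 and 3 gave differences between -0.69 and 0.027. Without the arrays numbered 2, the log2 differences of 1455444_at, 1443865_at and 1421738_at were -0.27, -0.13 and -0.66, so the positive means rested on that pair.

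Gabra3, whose alpha subunit is common in the developing cortex, had 436.7, 420.5 and 395.1 on probe set 1436957_at on the fluoxetine arrays and 323.4, 385.6 and 409.8 on the vehicle arrays. The lowest value was on vehicle array 1, and the groups overlapped. Its mean was 417.4 ± 21.0 against 372.9 ± 44.6 (SD, n = 3 each), a log2 difference of 0.17 ± 0.14 (SE) that was positive in pairs 1 and 2 (0.43 and 0.13) and -0.053 in pair 3.

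Gabra4, for an alpha subunit known from receptors outside the synapse that hold the delta subunit, had 3807.7, 3040.9 and 2394.4 on 1433707_at on the fluoxetine arrays and 3376.8, 2934.1 and 2361.0 on the vehicle arrays. In both groups number 1 was highest and number 3 lowest. The log2 difference was 0.082 ± 0.22, with 0.17, 0.052 and 0.020 in the 3 pairs. Gabra5, for an alpha subunit known for tonic inhibition, had 1584.6, 1053.1 and 1054.1 on 1433602_at on the fluoxetine arrays and 1449.7, 1056.5 and 1064.8 on the vehicle arrays. The log2 difference was 0.036 ± 0.22, and outside the arrays numbered 1 the 4 values lay within a ratio of 1.01.

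Of the beta subunit genes, no probe set passed. Gabrb1 had 2527.2, 3016.3 and 2664.4 on 1419719_at on the fluoxetine arrays and 2713.0, 3200.1 and 2480.1 on the vehicle arrays, a difference of -0.028 ± 0.15. Its other probe sets, 1435095_at (1011.3 to 1337.6 over the 6 arrays) and 1443205_at (148.5 to 191.3), gave 0.13 ± 0.17 and 0.051 ± 0.14. Gabrb2, the beta subunit gene typical of receptors at cortical synapses, had 2902.8, 2394.3 and 1816.0 on 1428203_at on the fluoxetine arrays and 2964.2, 2586.1 and 1690.1 on the vehicle arrays, a difference of -0.013 ± 0.26. On this probe set, as for Gabra4, the order by replicate number was the same in both groups. The other 3 Gabrb2 probe sets past the filter, 1429685_at, 1428204_at and 1428205_x_at, gave 0.11 ± 0.23, 0.20 ± 0.23 and 0.13 ± 0.24.

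Gabbr1, for the GABA-binding subunit of the GABA-B receptor, was the steadiest member when each is read by its brightest probe set. On 1455021_at it had 6551.7, 6893.4 and 6369.6 on the fluoxetine arrays and 6755.5, 7125.2 and 6493.8 on the vehicle arrays, a range of 1.12-fold over the 6. Its log2 difference was -0.040 ± 0.12, with a 95% interval from -0.32 to 0.24. The other 2 probe sets of Gabbr1, 1437188_at (1894.4 to 2439.3) and 1422051_a_at (115.2 to 176.7), gave -0.057 ± 0.16 and -0.098 ± 0.19. On 1455021_at Gabbr1 was lower on the fluoxetine array in all 3 pairs, by amounts between 0.028 and 0.048 on the log2 scale. The sign was the same in all 3 pairs for 3 of the 17 member probe sets, those of Gabbr1 and Gabra4 just given and 1435095_at of Gabrb1, and for 24.2% of all probe sets. When limma took the replicate number as a block, 0 of the 17 passed, and 0 had an unadjusted p under 0.05, against 4.02% of all probe sets.

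**Figure D2:**
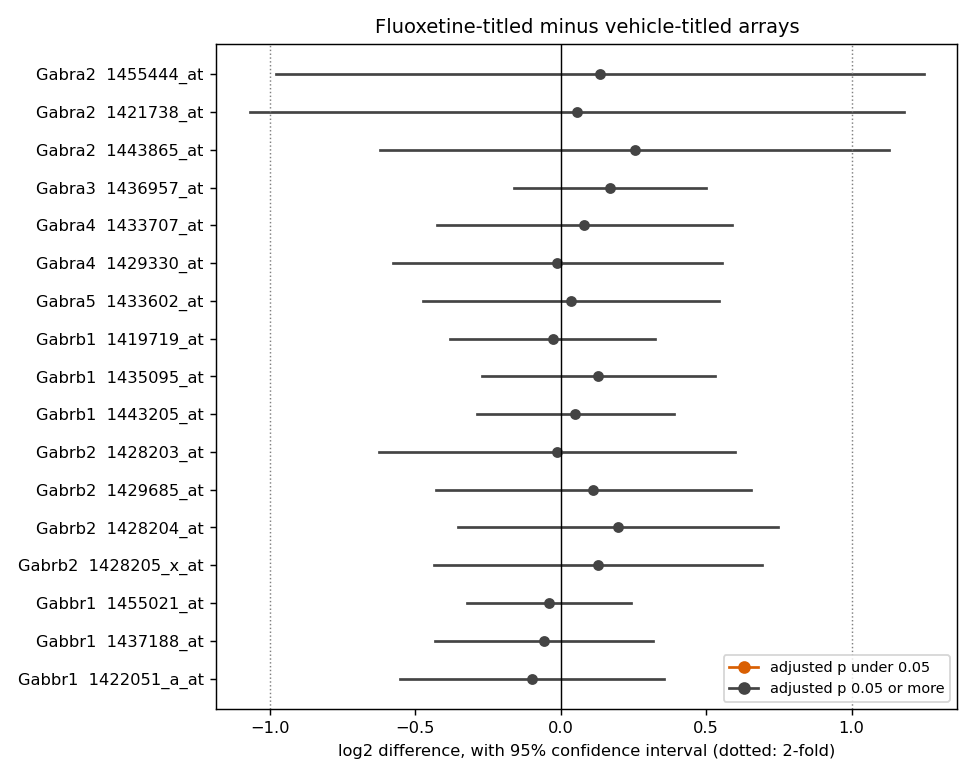
Log2 difference of fluoxetine minus vehicle arrays (x axis) for the 17 member probe sets past the filter (rows). Bars are 95% confidence intervals from limma without the replicate number, and dotted lines mark 2-fold. All 17 intervals contain 0, and the 3 of Gabra2 pass a dotted line.

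The comparison of the arrays numbered 1 with the other 4 describes how the same genes vary within each treatment. Between these classes 2 of the 17 member probe sets passed an adjusted p of 0.05 in limma with treatment as a covariate, 1 higher and 1 lower. Arrays of equal number deviate together, so these 6 arrays hold 1 replicate set against 2, and the test, which takes the arrays as independent, can give p-values that are too small. This share, 11.8%, is near the 15.3% of all 19073 probe sets that passed, 6.22% of them higher and 9.03% lower, so the count is not a result about GABA receptor genes. An unadjusted p under 0.05 was found for 8 of the 17, against 32.3% of all probe sets. On 6 member probe sets both arrays numbered 1 lay above the other 4 (23.5% of all probe sets did) and on 1 both lay below (21.6% did). The share outside in either direction was 41.2%, against 45.1% of all probe sets. The count over all probe sets, 2910 with every array, was 279 without fluoxetine array 1, 604 without vehicle array 1, 1893 without fluoxetine array 2 and 1521 without fluoxetine array 3.

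Gabra5 was the member called higher. It had 1584.6 and 1449.7 on the fluoxetine and vehicle arrays numbered 1, against 1053.1, 1056.5, 1054.1 and 1064.8 on the other 4. The log2 difference was 0.52 ± 0.11 (limma adjusted p = 0.0241), 0.59 withon the fluoxetine arrays and 0.45 withon the vehicle arrays. The value stayed between 0.45 and 0.59 with any 1 array left out, and the adjusted p was 0.0257 without vehicle array 3 and between 0.0515 and 0.235 without any of the other 5.

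Gabra4 gave opposite differences on its 2 probe sets. The brighter, 1433707_at, had 3807.7 and 3376.8 on the arrays numbered 1, against 3040.9, 2934.1, 2394.4 and 2361.0 on the other 4, a log2 difference of 0.43 ± 0.15 that did not pass (limma adjusted p = 0.101). The dimmer, 1429330_at, had 343.3 and 360.5, against 574.0, 544.2, 488.7 and 502.5, a difference of -0.58 ± 0.13 that did (limma adjusted p = 0.0233). On both probe sets the classes did not overlap, in opposite directions, and r between them was -0.66 over the 6 arrays. The call for 1429330_at was lost without either array numbered 1 (adjusted p = 0.218 and 0.145 without the fluoxetine and the vehicle one) or either array numbered 2 (0.0580 and 0.0543), and its log2 difference stayed between -0.63 and -0.53.

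Such a disagreement is not particular to Gabra4. Of 4406 genes with at least 2 probe sets past the filter, 10.2% had 1 probe set above and another below the other 4 arrays on both arrays numbered 1, and 5.33% had 1 higher and another lower with each at an unadjusted p under 0.05, as Gabra4 did. Probe sets of 1 gene read different stretches of its transcripts, and the files do not say which, so the level of Gabra4 message on these arrays has no single direction. Among the members with several probe sets, Gabra4 was the 1 with such a pattern, and signs alone differed for Gabra2, Gabrb1, Gabrb2 and Gabbr1 too, as they did for 46.8% of the 4406 genes.

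**Figure D3:**
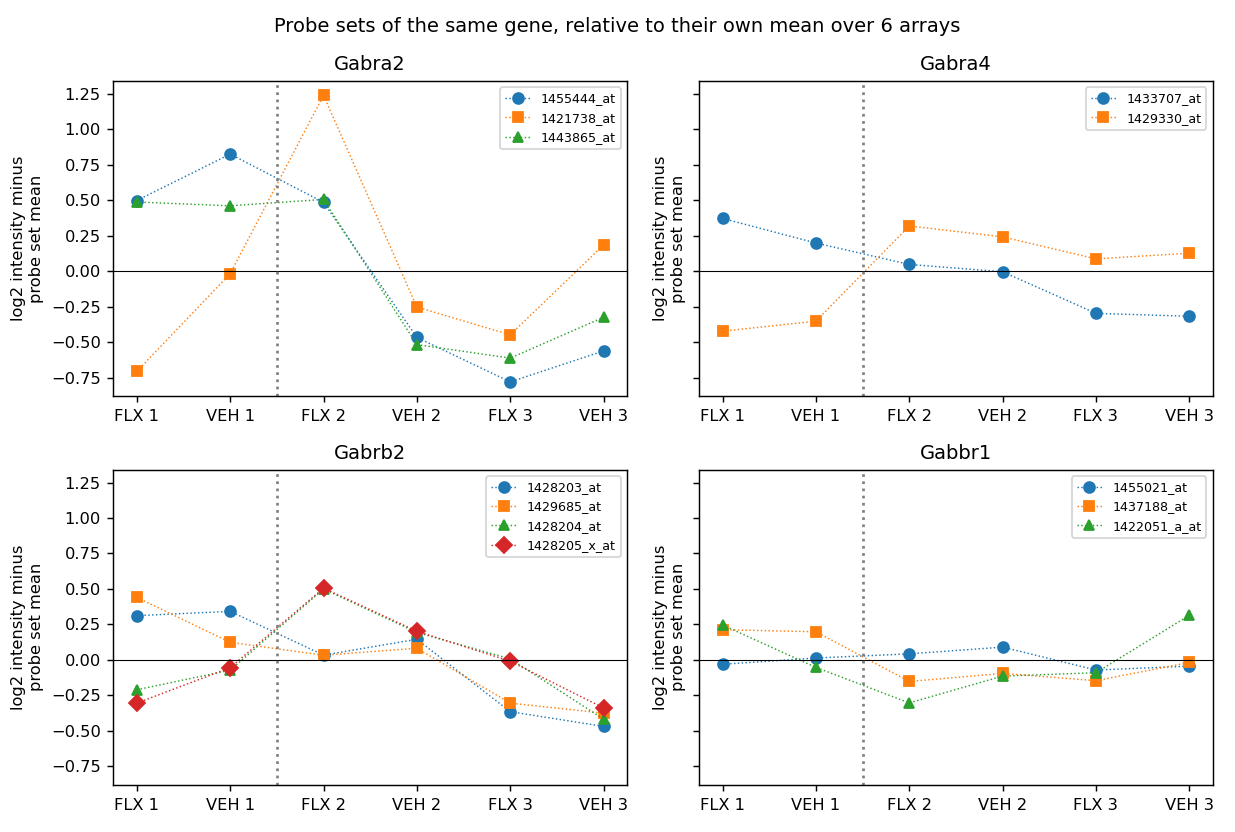
Log2 intensity of each probe set past the filter minus its own mean over the 6 arrays (y axis) for Gabra2, Gabra4, Gabrb2 and Gabbr1, by array (x axis; FLX fluoxetine, VEH vehicle; the arrays numbered 1 stand left of the dotted line, and thin lines only join points of 1 probe set). The 2 Gabra4 probe sets lie on opposite sides of 0 on both arrays numbered 1, and Gabra2 probe set 1421738_at stands far above its other values on fluoxetine array 2.

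The probe sets of Gabrb2 fell into 2 kinds. The brighter ones, 1428203_at and 1429685_at, followed each other (r = 0.93) and were highest on both arrays numbered 1 and lowest on both numbered 3. On 1429685_at the values were 2648.2 and 2127.3 on the arrays numbered 1, against 1997.0, 2066.7, 1580.8 and 1504.8 on the other 4. Their log2 differences were 0.49 ± 0.20 and 0.42 ± 0.18, with limma adjusted p = 0.132 and 0.145, and neither passed with any 1 array left out (0.36 to 0.62 and 0.27 to 0.58, the lowest of the second without fluoxetine array 1). Against the arrays numbered 3 alone both passed (0.74 and 0.62, adjusted p = 0.0152 and 0.0315), and against those numbered 2 alone neither did (0.24 and 0.22, adjusted p = 0.242 and 0.309).

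The dimmer Gabrb2 probe sets, 1428204_at and 1428205_x_at, gave nearly the same values as each other (r = 0.98) and are best read as 1 measurement. On 1428204_at they were 171.2 and 188.4 on the arrays numbered 1, against 280.1, 226.5, 199.1 and 148.3, with a log2 difference of -0.21 ± 0.23. These arrays overlapped, and fluoxetine array 2 was highest, as on 1421738_at and, narrowly, 1443865_at of Gabra2. The remaining Gabrb2 probe set, 1450319_at, had 68.4 and 65.6 on the arrays numbered 1, against 33.5, 36.9, 36.8 and 29.6, and missed the filter on treatment means. With the filter set on the means of the 2 replicate classes instead, its log2 difference was 0.97 ± 0.14, a value admitted through the arrays on which it is high.

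The brightest Gabra2 probe set had 517.0 and 648.6 on the arrays numbered 1, against 512.5, 264.9, 213.2 and 248.0 on the other 4. Fluoxetine array 2 lay just below fluoxetine array 1, and the other 3 were far lower. The log2 difference was 0.99 ± 0.33 (limma adjusted p = 0.0809), and with 1 array left out it lay between 0.65, when vehicle array 1 was dropped (adjusted p = 0.490), and 1.34, when fluoxetine array 1 was (adjusted p = 0.215). It passed in 1 of these fits, without fluoxetine array 2 (1.31, adjusted p = 0.00377). The other Gabra2 probe sets past the filter did not pass and differed in sign. With all arrays, 1443865_at had a log2 difference of 0.71 ± 0.28 (limma adjusted p = 0.128). On 1421738_at it was -0.54 ± 0.45 (limma adjusted p = 0.442). On both the classes overlapped. For Gabra3 and Gabrb1 no probe set past the filter had an unadjusted p under 0.05 in limma. Their log2 differences lay between -0.11 and 0.081. Gabbr1 differed by -0.013 ± 0.12 on its brightest probe set and by 0.31 ± 0.11 on 1437188_at (adjusted p = 0.107), where 2439.3 and 2415.2 stood against 1894.4, 1970.8, 1901.5 and 2079.1. Whether the 2 treatments differed in these replicate differences was tested by an interaction term in limma, which passed for 0 of the 17 and for 0% of all probe sets.

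**Figure D4:**
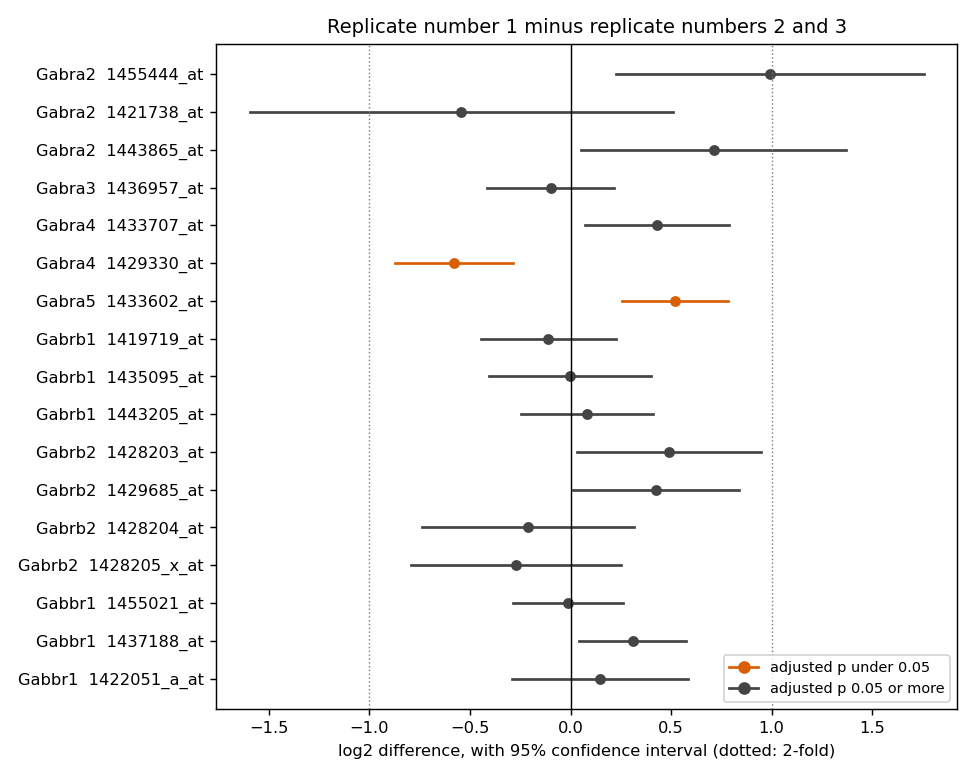
Log2 difference of the 2 arrays numbered 1 minus the other 4 (x axis) for the 17 member probe sets past the filter (rows), with 95% confidence intervals from limma; orange marks an adjusted p under 0.05. Gabra5 lies at 0.52 and the dimmer Gabra4 probe set at -0.58, with the brighter Gabra4 probe set at 0.43.

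Other genes of GABA signalling are given by 1 probe set each, that of highest mean, and in this form 5.92% of 10830 genes passed as higher and 6.86% as lower between the replicate classes (12.8% in all), and 0% between the treatments. Of 13 other GABA-A subunit genes listed, 9 had a named probe set and 3 passed the filter, and 0 passed either test. The delta subunit gene Gabrd had 1583.8, 1438.8 and 929.5 on the fluoxetine arrays and 1594.3, 1483.5 and 1020.4 on the vehicle arrays. Gabrd was thus low on both arrays numbered 3, like the brightest probe sets of Gabra4 and Gabrb2. Gabrg1, whose gamma subunit is also known from glia, had 427.4, 422.0 and 311.5 against 439.4, 419.4 and 206.3, lowest on vehicle array 3. Gabrg3 lay between 44.1 and 67.6, and the 6 genes under the filter reached at most 15.0 on any array.

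For the GABA-B arm, 8 genes were listed, 6 had a named probe set and 3 passed the filter. Kcnj9, a GIRK channel subunit gene, fell on the arrays numbered 1. It had 320.6 and 353.2 there, against 715.6, 543.1, 687.3 and 697.1 on the other 4, a log2 difference of -0.96 ± 0.15 (limma adjusted p = 0.00735). Kcnj3, for another GIRK subunit, had a log2 difference of 0.38 ± 0.13 (adjusted p = 0.0880) and the auxiliary subunit gene Kctd8 one of -0.25 ± 0.13 (adjusted p = 0.222). Of these 3 genes only Kcnj9 passed the test. Between the treatments Kcnj9 had a log2 difference of 0.079 ± 0.37 and Kcnj3 one of 0.10 ± 0.19.

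Of 19 genes listed for the inhibitory postsynapse and receptor trafficking, 18 were measured, and 3 passed between the replicate classes. Gabarapl2, of the family of GABA-A receptor-associated proteins, rose by 0.78 ± 0.14 on the log2 scale (limma adjusted p = 0.0129), with 4086.3 and 3575.2 on the arrays numbered 1 against 2142.0, 2104.0, 2133.7 and 2586.6. The synaptic adhesion gene Slitrk3 fell, with a log2 difference of -0.91 ± 0.13 (adjusted p = 0.00570), and so did Hap1, for a trafficking adaptor of GABA-A receptors, with -0.70 ± 0.12 (adjusted p = 0.0101). The scaffold gene Gphn (gephyrin), named for its role after its value was seen, had a difference of -0.025 ± 0.12, and Gabarap, Gabarapl1, Nsf and Ubqln1 had 0.058, 0.031, -0.21 and -0.055. Between the treatments 0 of the 18 passed, with a median log2 difference of 0.00059.

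Of 8 genes listed for synthesis, transport and breakdown of GABA, 6 passed the filter and 0 passed either test. Gad1, for the GABA-synthesising enzyme, had 16165.0, 19982.4 and 17109.9 on the fluoxetine arrays and 16862.4, 19423.2 and 13696.0 on the vehicle arrays, lowest on vehicle array 3. Slc32a1, for the vesicular transporter, had a treatment difference of 0.33 ± 0.30 on the log2 scale, Abat 0.14 ± 0.26 and Aldh5a1 0.075 ± 0.22. Of 5 chloride transporter and kinase genes, all were measured and 1 passed between the replicate classes. That was Stk39, for a kinase that acts on cation-chloride cotransporters, with 1218.3 and 1285.9 on the arrays numbered 1 against 763.3, 830.8, 783.5 and 796.5 (log2 difference 0.66 ± 0.11, limma adjusted p = 0.0103). The transporter gene Slc12a5 (KCC2), which keeps chloride low in neurons, had a replicate difference of 0.024 ± 0.12, and Slc12a2, Wnk1 and Wnk3 had 0.080, 0.32 and -0.50. Without either array numbered 1 the calls of Gabarapl2, Slitrk3, Hap1 and Stk39 were lost (adjusted p between 0.0677 and 0.186), and that of Kcnj9 was lost without the fluoxetine one (0.131). Their log2 differences with any 1 array left out lay between 0.62 and 0.93 for Gabarapl2, -0.96 and -0.86 for Slitrk3, -0.73 and -0.67 for Hap1, 0.64 and 0.67 for Stk39, and -1.13 and -0.80 for Kcnj9.

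Markers of other cell types that carry GABA receptors moved between arrays. The median intensity lay between 23.1 and 23.5 on the 6 arrays, and the layer 5 gene Colgalt2, which drives the tag, lay between 709.2 and 986.1. Summed over 13 interneuron markers, all measured, the intensity was 36337 to 40923 on the fluoxetine arrays and 32884 to 41736 on the vehicle arrays. Over 12 astrocyte markers it was 28011 to 35935 and 19547 to 34836, and over 11 oligodendrocyte markers 30688 to 37987 and 22017 to 40992. Vehicle array 3 was lowest in all 3 sums. Gabrb2 (1428203_at) and Gabra4 (1433707_at) were low on both arrays numbered 3, at 1816.0 and 2394.4 on the fluoxetine and 1690.1 and 2361.0 on the vehicle one. Without vehicle array 3 alone, which leaves the replicate numbers unbalanced, their treatment differences were -0.25 and -0.057. The part of the marker sums in these differences was not tested. The 11 layer 5 markers summed to 41726 to 52485 on the fluoxetine arrays and 44413 to 56269 on the vehicle arrays. The 10 vessel markers, 4 of them under the filter, summed to 6172, 4861 and 4587 on fluoxetine arrays 1, 2 and 3. On vehicle arrays 1, 2 and 3 the sums were 5396, 4056 and 4135, lower than on the fluoxetine array in every pair. Of the 6 past the filter, 5 had the same sign in all 3 pairs, against 24.2% of all probe sets. For 2 the groups did not overlap, against 3.65% of all probe sets. Of the 6, 0 passed the adjusted test, and Acta2, named after its value was seen, had the largest log2 difference (0.68). It was the only vessel marker with an unadjusted p under 0.05 by limma without the replicate number, as 0.634% of all probe sets had. With the replicate number as a block in limma, 3 of the 6 had an unadjusted p under 0.05, against 4.02% of all probe sets. In that fit too, 0 of the 6 passed the adjusted test.

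By replicate class, the sum of layer 5 markers was 52485 and 56269 on the arrays numbered 1, against 41726 to 51889 on the other 4, and the sum of interneuron markers was 40399 and 40922 against 32884 to 41736. Gad1 and Cck were the largest parts of the interneuron sums. Cck had 13685.6 and 12797 on the arrays numbered 1, against 8400.8 to 10844.4 on the other 4. Gad1 had 16165 and 16862.4, against 13696 to 19982.4. Of the 13 interneuron markers, 6 had a positive and 7 a negative log2 difference between the classes. Pcp4 alone gave 32186 and 37135.2 of the layer 5 sums on the arrays numbered 1. The median deviation of the layer 5 genes from their own means was 0.095 and 0.092 there and 0.092 on vehicle array 3. Crym, Ldb2, Pcp4 and Npr3 lay higher on both arrays numbered 1 than on the other 4, and Fezf2, Bcl6 and Chst8 lay lower. Of all probe sets 23.5% lay higher and 21.6% lower in this way. Astrocyte markers summed to 28011 and 30170 against 19547 to 35935. Microglia and vessel markers summed to 2760 and 3207 and to 6172 and 5396 on the arrays numbered 1, against 1268 to 2888 and 4056 to 4861. Slc2a1 gave 4069.5 and 3666.7 of the vessel sums on the arrays numbered 1, and the median deviation of the vessel genes was 0.45 on fluoxetine array 1 and -0.048 on vehicle array 1, below fluoxetine arrays 2 and 3 (0.057 and 0.11). No marker list stood at 0, and 3 of 9 microglia markers (among them Tmem119 and P2ry12) and 4 of 10 vessel markers (among them Pecam1 and Kdr) were under the filter. Between the classes 0 of 11 layer 5 and 0 of 13 interneuron markers passed in limma, while Slc1a2 of 12 astrocyte markers (-0.88), Sox10 of 11 oligodendrocyte markers (-0.90) and Slc2a1 of 6 vessel markers past the filter did. The part of these cell types in the differences of Gabra4, Gabra5 and Gabra2 was not tested.

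**Figure D5:**
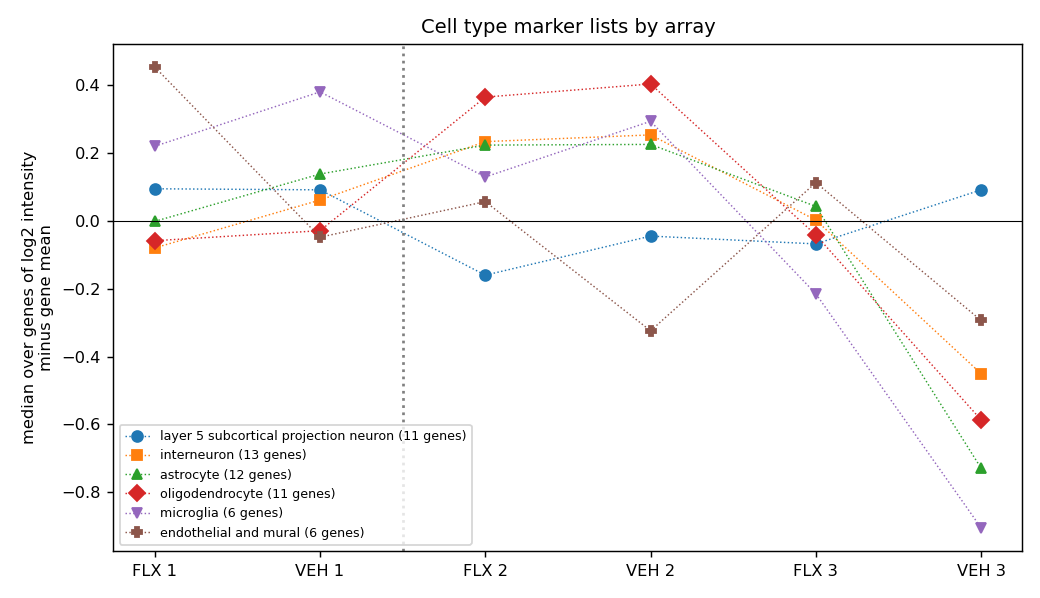
Median over the genes of each marker list of log2 intensity minus the gene's own mean (y axis), by array (x axis; FLX fluoxetine, VEH vehicle; arrays numbered 1 left of the dotted line, thin lines only join points of 1 list). Vehicle array 3 is lowest for interneuron, astrocyte, oligodendrocyte and microglia markers, at -0.45, -0.73, -0.59 and -0.91.

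For each member the 2 genes whose intensity followed it best over the 6 arrays were taken from 10823 other genes, as a description, since the best of so many at 6 points is always close. For Gabra5 they were Mbd2 (Pearson r = 0.999) and BC052688 (0.998), for Gabra4 Gria3, an AMPA receptor subunit gene (0.994), and Prim1 (0.993), and for Gabrb2 Srr, for serine racemase (0.996), and Rapgef5 (0.995). Gabrb1 was followed by Clstn1 (0.995) and Dmxl2 (0.995), Gabra2 by Tmem98 (0.991) and Prpf38b (0.988), Gabbr1 by Ciapin1 (0.989) and Dcaf7 (0.989), and Gabra3 by Fam171a1 (0.986) and Sipa1l3 (0.981). All values come from the same 6 arrays, which share replicate numbers and treatments.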

How the data were processed

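Ribosome-bound RNA of 6 purifications was amplified in 2 cycles from 15 ng and hybridised to Affymetrix mouse arrays, per the labels' protocols. For each array the authors deposited a linear intensity for every probe set, and the submitters' processing notes name GCRMA, a method that corrects background and normalizes between arrays. The sources used here give neither its version nor its settings. The number of arrays limits the precision, and intensities of different probe sets share no scale.

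Of 45101 probe sets, 64 controls were left out, and those with a mean of at least 50 in at least 1 treatment group were kept. Names came from the platform annotation: 34945 probe sets had 1 symbol, 932 several and 9160 none, and those with several or none were left unnamed. All 23 member probe sets matched RefSeq by Entrez identifier, with 0 symbols changed. The model on log2 intensity was limma's (3.58.1, R 4.3.3; lmFit, then eBayes), its p-values two-sided and adjusted by Benjamini-Hochberg across the kept probe sets. Treatment was fitted alone, and replicate number 1 against the others with treatment as a covariate. The code was tested on simulated data.

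The replicate numbers pair the arrays: those of equal number deviated together from their group means (correlations of 0.738, 0.602 and 0.504), while the other pairings gave -0.592 to 0.259. The pairing comes from the titles and this check. The block changed no call.

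Genes of the lists were named where they passed a test or, up to 4 a list, had the highest mean. Members, lists and the replicate comparison were chosen with earlier results of these data known. Genes without a named probe set were not analysed here.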

Additional observations from a re-analysis of the deposited data

How the results depend on the processing

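Between the treatments, 0 member probe sets and 0 probe sets in all passed limma under each of 17 alternatives, with adjusted p of at least 0.993 for the members (the replicate block included). Under the 8 that kept all arrays no member changed sign. With arrays left out the log2 differences of these members, none of them called, changed sign at least once: -0.27 to 0.58 for Gabra2 1455444_at, -0.084 to 0.25 for Gabra4 1433707_at, -0.19 to 0.20 for Gabra4 1429330_at, -0.16 to 0.19 for Gabra5 1433602_at, -0.11 to 0.073 for Gabrb1 1419719_at, -0.079 to 0.29 for Gabrb2 1429685_at, -0.25 to 0.17 for Gabrb2 1428203_at, -0.18 to 0.028 for Gabbr1 1437188_at, -0.66 to 0.43 for Gabra2 1421738_at, -0.022 to 0.16 for Gabrb1 1443205_at, -0.0027 to 0.37 for Gabrb2 1428204_at, -0.093 to 0.32 for Gabrb2 1428205_x_at, -0.30 to 0.054 for Gabbr1 1422051_a_at and -0.13 to 0.62 for Gabra2 1443865_at. The others kept their sign, at 0.036 to 0.28 for Gabra3 1436957_at, 0.026 to 0.26 for Gabrb1 1435095_at and -0.072 to -0.0048 for Gabbr1 1455021_at.

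Between the replicate classes the count of 2910 probe sets was 1698 with no filter on intensity (630 higher and 1068 lower, of 45037 tested) and 279 to 3549 when any 1 array was dropped (3549 without vehicle array 3). The count of 2 member probe sets was 6 against replicate number 3 alone, where the brightest probe sets of Gabra2 (1.33), Gabra4 (0.59) and Gabrb2 (0.74, and 0.62 on its second) passed too, and lay between 0 and 2 with 1 array left out. It was 0 without fluoxetine array 1, vehicle array 1 or vehicle array 2. Uncalled differences changed sign with each array centred on its median for Gabrb1 1435095_at (0.022) and Gabbr1 1455021_at (0.011), against number 2 alone for Gabrb1 1443205_at (-0.042), and against number 3 alone for Gabrb1 1419719_at (0.027) and 1435095_at (0.19), Gabrb2 1428204_at (0.064) and Gabbr1 1455021_at (0.049) and 1422051_a_at (-0.016). With 1 array left out the ranges were -1.10 to 0.016 for Gabra2 1421738_at, -0.46 to 0.040 for Gabrb2 1428204_at, -0.55 to 0.013 for Gabrb2 1428205_x_at, -0.15 to 0.44 for Gabbr1 1422051_a_at, -0.30 to 0.099 for Gabra3 1436957_at, -0.16 to 0.15 for Gabrb1 1435095_at, -0.042 to 0.015 for Gabbr1 1455021_at and -0.0022 to 0.15 for Gabrb1 1443205_at. Where 1 array of number 1 was left, limma took its spread from the other arrays. The filter on replicate classes was chosen after seeing the data. Other alternatives gave 2 calls each, those of Gabra5 and Gabra4 1429330_at. Except where the arrays compared or the probe sets tested changed, the cause was not tested.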
